A study of Mus musculus with 30 samples.

Results

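Interferon-stimulated genes are the genes that cells switch on when interferons reach their surface. Here 41 of them were followed by name in mouse bone marrow derived macrophages, and 40 had a row among the 43629 gene IDs of the count tables. Gbp5 was not analysed here. The genes were chosen by symbol, with earlier results of these data known, and all 40 passed the filter on low counts in both experiments of the study.

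Messenger RNA was sequenced in 30 libraries, in 10 groups of 3. All cells were C57BL/6 macrophages grown from bone marrow in CSF-1, a macrophage growth factor, at 20 ng/mL and used at day 7. In the wild type experiment 1 group had no stimulus and 1 had IL-4 (20 ng/mL). A further pair of groups had IL-4 plus either prostaglandin E2 (PGE2, 10 µM) or valinomycin (10 nM). In the shRNA experiment the cells carried a lentiviral short hairpin RNA, either the control hairpin or one against Etv1, an ETS-family transcription factor, and had no stimulus, IL-4, or IL-4 with PGE2 at those doses. All PGE2 and valinomycin groups thus also had IL-4. The labels name 1 control and 1 Etv1 hairpin group, and give neither the hairpin sequences nor the stimulation time. Whether replicates are separate mice or separate cultures is not stated, and a p-value here refers to the spread of these libraries alone, part of which may be technical.

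IL-4 is the cytokine that drives alternative activation of macrophages, PGE2 is a lipid mediator that raises cyclic AMP, and valinomycin carries potassium across membranes and so depolarises mitochondria. Type I interferons bind the receptor made of Ifnar1 and Ifnar2, whose JAK kinases phosphorylate STAT2. With IRF9 it is part of ISGF3, the complex that binds the interferon-stimulated response element (ISRE) in the promoters of these genes. Interferon gamma acts mainly through another element, the gamma-activated site (GAS). Macrophages keep a low level of this programme running without infection, because of a small constant supply of interferon beta.

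The promoters show the element that unites much of the group. RefSeq promoters on GRCm38.p6 were matched for 29 of the 40 genes, and the 250 bases before each start were searched on both strands for GAAANNGAAA, the repeated core of the ISRE. It was present in 15 of these 29 promoters (51.7%) and in 978 of all 32851 promoters of the same length (2.98%). The letters TTCNNNGAA of the GAS, which read the same on both strands, were present in 7 of the 29 (24.1%) and in 7.02% of all promoters. The 2 motifs overlapped in Bst2. The 6 promoters below belong to genes named in the results, and all of them hold the ISRE core. Ddx58 and Ifit2, also named in the results, hold no such core in the 250 bases searched and are not shown. Each is given 5′ to 3′ on the strand of its gene and holds the 170 bases before the start, with the ISRE core letters in capitals on whichever strand they lie.
Ifit1, chr19:34640719-34640888, plus strand: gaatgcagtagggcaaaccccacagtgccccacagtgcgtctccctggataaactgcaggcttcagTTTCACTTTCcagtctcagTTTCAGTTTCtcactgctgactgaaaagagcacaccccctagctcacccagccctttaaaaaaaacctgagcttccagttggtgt
Ifit3, chr19:34583359-34583528, plus strand: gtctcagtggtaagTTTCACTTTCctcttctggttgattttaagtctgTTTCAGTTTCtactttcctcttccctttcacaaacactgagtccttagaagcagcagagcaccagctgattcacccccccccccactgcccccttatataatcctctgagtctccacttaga
Rsad2, chr12:26456453-26456622, minus strand: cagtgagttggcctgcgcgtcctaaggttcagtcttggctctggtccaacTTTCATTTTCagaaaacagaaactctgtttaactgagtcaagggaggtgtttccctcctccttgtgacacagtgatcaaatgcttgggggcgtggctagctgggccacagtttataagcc
Isg15, chr4:156200819-156200988, minus strand: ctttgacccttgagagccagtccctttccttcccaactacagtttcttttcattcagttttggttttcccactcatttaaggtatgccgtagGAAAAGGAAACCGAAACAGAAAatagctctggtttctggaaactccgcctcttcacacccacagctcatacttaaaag
Gbp7, chr3:142530166-142530335, plus strand: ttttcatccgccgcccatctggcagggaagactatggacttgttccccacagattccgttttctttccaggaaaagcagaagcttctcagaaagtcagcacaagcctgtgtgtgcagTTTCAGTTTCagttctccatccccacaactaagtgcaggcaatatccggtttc
Bst2, chr8:71537473-71537642, minus strand: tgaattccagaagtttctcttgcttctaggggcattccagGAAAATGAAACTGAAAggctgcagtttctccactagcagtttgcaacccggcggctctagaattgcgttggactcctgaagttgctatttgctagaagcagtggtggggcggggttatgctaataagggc

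Ifit1 and Ifit3 each hold 2 separate cores, at bases 104 to 95 and 85 to 76 before the start in Ifit1 and at 156 to 147 and 122 to 113 in Ifit3. Isg15 holds 3 overlapping cores between bases 78 and 57. Gbp7 has a core at 53 to 44 and GAS letters at 106 to 98 and 87 to 79. A match is a description of letters and does not show binding.

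The libraries held 10514496 to 13414293 counts in the wild type and 6924973 to 30473040 in the shRNA experiment. Etv1 was checked first in the hairpin libraries. It was 3.23-fold lower with its hairpin without stimulus (log2 fold change -1.69, SE 0.20, edgeR adjusted p = 1.16e-06), and was called lower with IL-4 (-1.39) and with IL-4 and PGE2 (-1.67). All 8 macrophage markers were detected in every group. In wild type their summed level ran from 14361.5 to 19082.7 CPM. It ran from 15895.0 to 21465.2 CPM with the control hairpin and from 8902.5 to 10386.1 CPM with the Etv1 hairpin. Single markers differed in direction. Without stimulus Lyz2 held 12433, 13724 and 14484 CPM with the control hairpin and 4356, 4343 and 4503 CPM with the Etv1 hairpin. Adgre1 held 1175, 815 and 1195 CPM against 2387, 1875 and 2096 CPM. The part of these levels in the hairpin results was not tested. The sum of 8 neutrophil markers was 212.1 to 342.0 CPM in wild type and at most 2.5 CPM in the shRNA libraries. Of 5 markers of plasmacytoid dendritic cells, which make much interferon, only Tcf4 passed 3 CPM in wild type. In bulk RNA, fewer cells of a type and less RNA per cell cannot be told apart.

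Levels in unstimulated wild type cells spanned a wide range, here as CPM (read counts scaled to a common library total) per kilobase of exon. Ifi27l2a, of the ISG12 family, was highest at 516.89, followed by Bst2, which encodes tetherin, the protein that holds budding virions on the cell, at 121.09, and Ifi204, a DNA sensor of the p200 family, at 35.99. The lowest levels were those of Iigp1 (0.20), Ifi44 (0.48), Mx2 (0.95) and Isg20 (0.98), and the median gene was at 8.65. Below, CPM without a length is used only within 1 gene and 1 experiment, since each experiment was normalised alone.

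IL-4 alone lowered most of the group in wild type cells. Of 40 genes, 30 were called lower and 5 higher at an edgeR adjusted p under 0.05, where 22.4% and 24.0% of all 12824 genes tested were called lower and higher. The median log2 fold change was -0.59 for the 40 genes and 0.01 for all genes. The genes with the largest falls were the RNA-binding tetratricopeptide genes Ifit3 and Ifit1, the GTPase gene Mx2, present at low counts, and Rsad2, whose product viperin makes a chain-terminating nucleotide.

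The 3 Ifit genes lie side by side on chromosome 19, and their products bind viral RNA that lacks the host cap marks. Ifit3 stood at 15.8, 17.5 and 19.5 CPM without stimulus and at 2.88, 2.63 and 5.31 CPM with IL-4. The groups lay far apart, with the third IL-4 library above the other two, and Ifit3 was 4.85-fold lower with IL-4 (log2 fold change -2.28, SE 0.21, edgeR adjusted p = 1.38e-07). Ifit1 fell by 2.15 (SE 0.19, adjusted p = 2.56e-09), and Ifit2 went from 16.9, 18.8 and 21.4 CPM to 6.1, 6.54 and 7.19 CPM, a change of -1.53 (SE 0.19, adjusted p = 3.76e-06). Rsad2 showed the same separation, with 19.6, 21.5 and 24.6 CPM without stimulus against 6.19, 5.82 and 7.89 CPM with IL-4 (log2 fold change -1.72, SE 0.22, edgeR adjusted p = 2.52e-05). Cmpk2, the nucleotide kinase gene next to Rsad2 on chromosome 12, was 2.54-fold lower.

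Among the oligoadenylate synthetases, which make the messenger that activates RNase L, and their relatives, 4 of 5 were called lower with IL-4. Oas3 changed by -1.11 (SE 0.07) and Oasl2, the most abundant of them, went from 103, 105 and 100 CPM to 58.2, 44.6 and 64.6 CPM. Oas1a was the exception, with 0.06 (SE 0.06). Isg15, the ubiquitin-like modifier, went from 12.9, 13.5 and 12.5 CPM to 4.97, 6.54 and 7.5 CPM, which was 2.03-fold lower (edgeR adjusted p = 5.96e-07). Herc6, the mouse ligase that attaches ISG15, was also called lower, from 36.2, 34.4 and 32.7 CPM to 25.7, 28.7 and 27.3 CPM. Both Mx genes were called lower, Mx2 by 1.81 on the log2 scale and Mx1 by 0.44, with overlapping Mx1 groups. The Mx1 allele of C57BL/6 mice is known to encode no full-length protein, so its counts are a readout of transcription.

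The 5 genes called higher with IL-4 belonged to different roles. Zbp1, a sensor of Z-form nucleic acid that can trigger necroptosis, stood at 12.5, 12.7 and 12.6 CPM without stimulus and at 23.4, 26.5 and 27.3 CPM with IL-4, 2.05-fold higher (log2 fold change 1.03, SE 0.08, edgeR adjusted p = 3.27e-10). Usp18, the protease that removes ISG15 and restrains signalling at the interferon receptor, rose 1.79-fold, from 9.88, 9.31 and 10.9 CPM to 17.9, 17 and 19.4 CPM (adjusted p = 1.47e-07). In both genes every IL-4 library lay above every unstimulated one, so Usp18 and its substrate Isg15 moved in opposite directions. Smaller rises were called for the guanylate-binding protein gene Gbp7 (0.51, SE 0.11), Bst2 (0.27, SE 0.06) and the immunity-related GTPase gene Ifi47 (0.23, SE 0.08, adjusted p = 0.0202). The Ifi47 call was lost without unstimulated replicate 1 (0.20) or 2 (0.19) or IL-4 replicate 3 (0.20). It was also lost with DESeq2 and without a filter on low counts.

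The remaining roles were mostly lower with IL-4. The sensor genes Dhx58 (-0.54), Ifih1 (-0.24), Ifi204 (-0.22) and Ddx58 (-0.20) were called lower, as were 6 of the 7 other antiviral effectors, among them Slfn5 (-0.96) and Samd9l, which went from 141, 143 and 141 CPM to 109, 100 and 104 CPM. Of the 4 immunity-related GTPases, which attack the vacuoles of intracellular pathogens, 3 were called lower, with Irgm1 at 57.1, 57.3 and 63.7 CPM before and 34.1, 35.3 and 44.2 CPM after IL-4. Of the 8 signalling and other genes 5 were called lower, led by Rtp4 (-1.21, SE 0.09). Stat2, a subunit of ISGF3, was not called (-0.03, SE 0.06), nor was Ifi27l2a (0.09, SE 0.06).

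**Figure D1:**
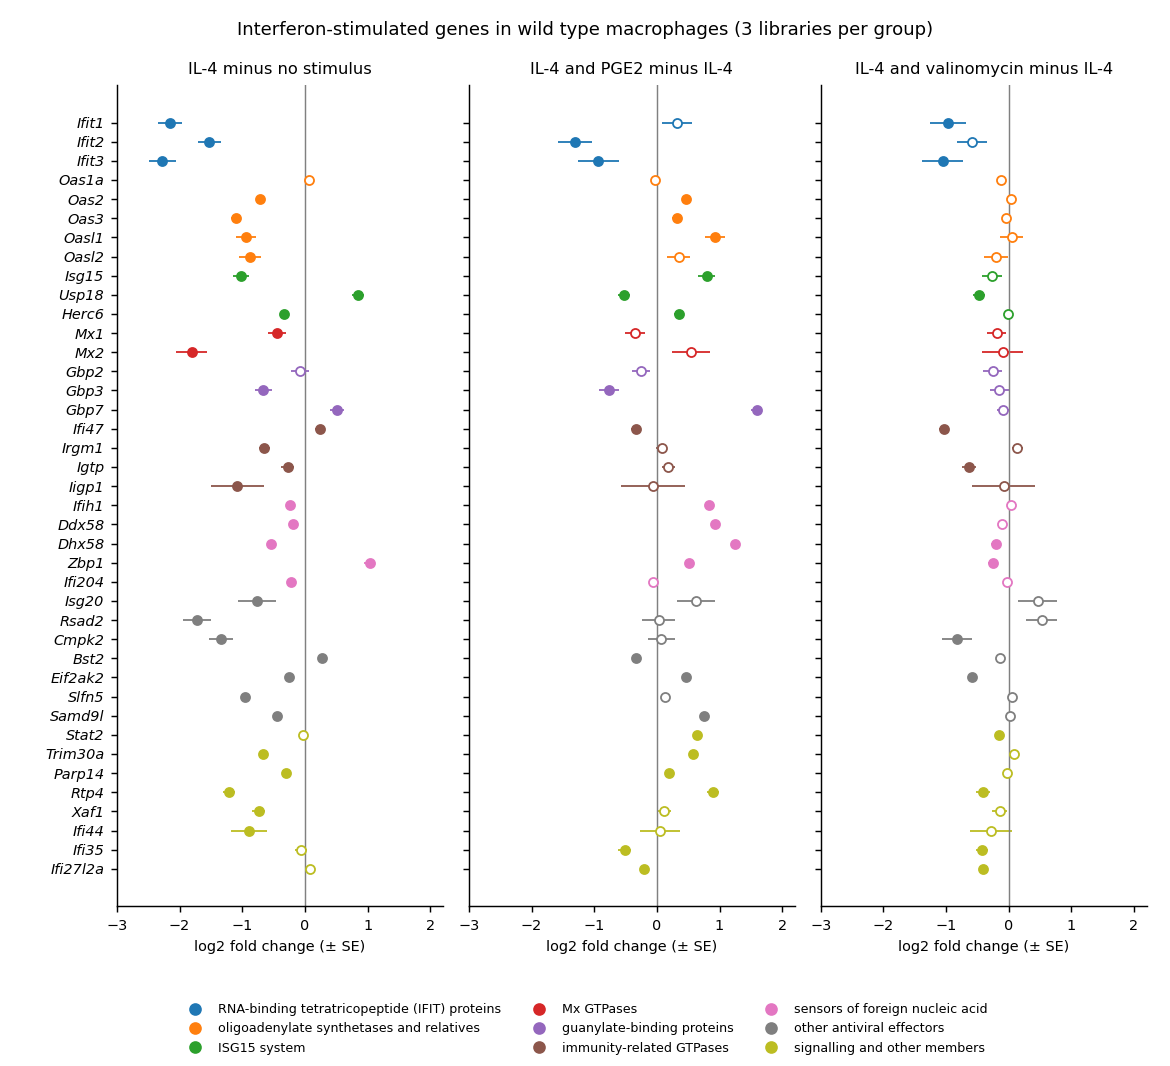
Log2 fold changes of the 40 genes in wild type macrophages for 3 comparisons, with points at the edgeR estimate, bars of 1 SE, filled points for genes called at an adjusted p under 0.05 and colours for roles. With IL-4 30 genes are filled on the lower side and 5 on the higher, with PGE2 16 are filled on the higher side and 8 on the lower, and with valinomycin 13 are filled on the lower side and none on the higher.

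PGE2 on top of IL-4 raised part of the group in wild type cells and lowered a smaller part. Of the 40 genes 16 were called higher and 8 lower, where 29.9% and 29.5% of all genes tested were called higher and lower. The share of the 40 called lower was below that of all genes. The median change was 0.18 for the 40 genes and 0.01 for all genes. Of the 5 sensor genes 4 rose and none fell, and of the 5 oligoadenylate synthetases and relatives 3 rose and none fell, while 2 of the 3 Ifit genes fell. The comparisons with IL-4, with PGE2 and with valinomycin share the IL-4 libraries, so their values stand side by side and are not independent.

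The sensor genes encode the RNA helicases of the RIG-I family and others that detect viral nucleic acid. Dhx58, which encodes LGP2, stood at 32.6, 38.3 and 37.2 CPM with IL-4 and at 80.8, 83.5 and 92.8 CPM with IL-4 and PGE2, 2.37-fold higher (log2 fold change 1.25, SE 0.07, edgeR adjusted p = 9.67e-14). Ddx58, which encodes RIG-I, went from 45, 46.8 and 44.3 CPM to 90.7, 86.5 and 82.7 CPM, 1.91-fold higher (0.93, SE 0.06, adjusted p = 5.03e-12). Ifih1, which encodes MDA5, rose by 0.84 (SE 0.07). For all 3 helicases the PGE2 libraries lay above both the IL-4 and the unstimulated libraries. Zbp1, already higher with IL-4, rose again by 0.52 (SE 0.07) to 37, 35.2 and 38.6 CPM. Ifi204 was not called (-0.06, SE 0.06), with 106, 109 and 117 CPM before and 103, 111 and 103 CPM after PGE2.

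Gbp7 had the largest rise of the group with PGE2. Its levels were 12.9, 12.7 and 14.2 CPM with IL-4 and 41.2, 37.2 and 41.7 CPM with IL-4 and PGE2, 3.01-fold higher (log2 fold change 1.59, SE 0.09, edgeR adjusted p = 1.16e-13). The neighbouring guanylate-binding protein gene Gbp3 fell by 0.77 (SE 0.16) and Gbp2 was not called (-0.25, SE 0.15). Gbp2, Gbp3 and Gbp7 are members of 1 gene family in a cluster on chromosome 3, and how the counting divided reads that fit several of them is not given in the sources used here. The same limit holds for Ifit3, Oas1a, Ifi204 and Trim30a, which have close relatives.

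The Ifit genes moved differently from the sensors. Ifit2 went from 6.1, 6.54 and 7.19 CPM to 1.53, 2.15 and 4.67 CPM, a change of -1.31 (SE 0.27, edgeR adjusted p = 0.0005). Ifit3 stood at 1.69, 1.03 and 3.11 CPM with PGE2, overlapping the IL-4 libraries, and changed by -0.94 (SE 0.33, adjusted p = 0.0204). That call was lost without IL-4 replicate 3 (-0.54) or without replicate 1 (-0.85) or 2 (-0.64) of IL-4 with PGE2. It was also lost with only the compared groups. Ifit1 was not called (0.32, SE 0.24), nor was Rsad2 (0.03, SE 0.27), whose PGE2 libraries ranged from 3.76 to 10 CPM around the IL-4 levels.

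In the ISG15 system, the signs of the IL-4 effect were turned around. Isg15 rose by 0.79 (SE 0.13, edgeR adjusted p = 2.14e-05) to 11.9, 9.52 and 11.8 CPM, just under its unstimulated level, and Herc6 rose by 0.35 (SE 0.07) to 33.4, 35.6 and 35.4 CPM. Usp18 fell by 0.52 (SE 0.10) to 12.1, 12.4 and 13.4 CPM, which still lay above all 3 unstimulated libraries. Oasl1 (0.93), Oas2 (0.46) and Oas3 (0.32) rose, Oasl2 was not called at 83.1, 54.5 and 75.4 CPM (0.35, SE 0.18), and neither Mx gene was called, with Mx1 at -0.35 (SE 0.16). Further rises were called for Rtp4 (0.90), Samd9l (0.76), Stat2 (0.64), Trim30a (0.58), Eif2ak2 (0.47), which encodes the kinase PKR, and Parp14 (0.19). Further falls were called for Ifi35 (-0.51), Ifi47 (-0.34), Bst2 (-0.33) and Ifi27l2a (-0.21).

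**Figure D2:**
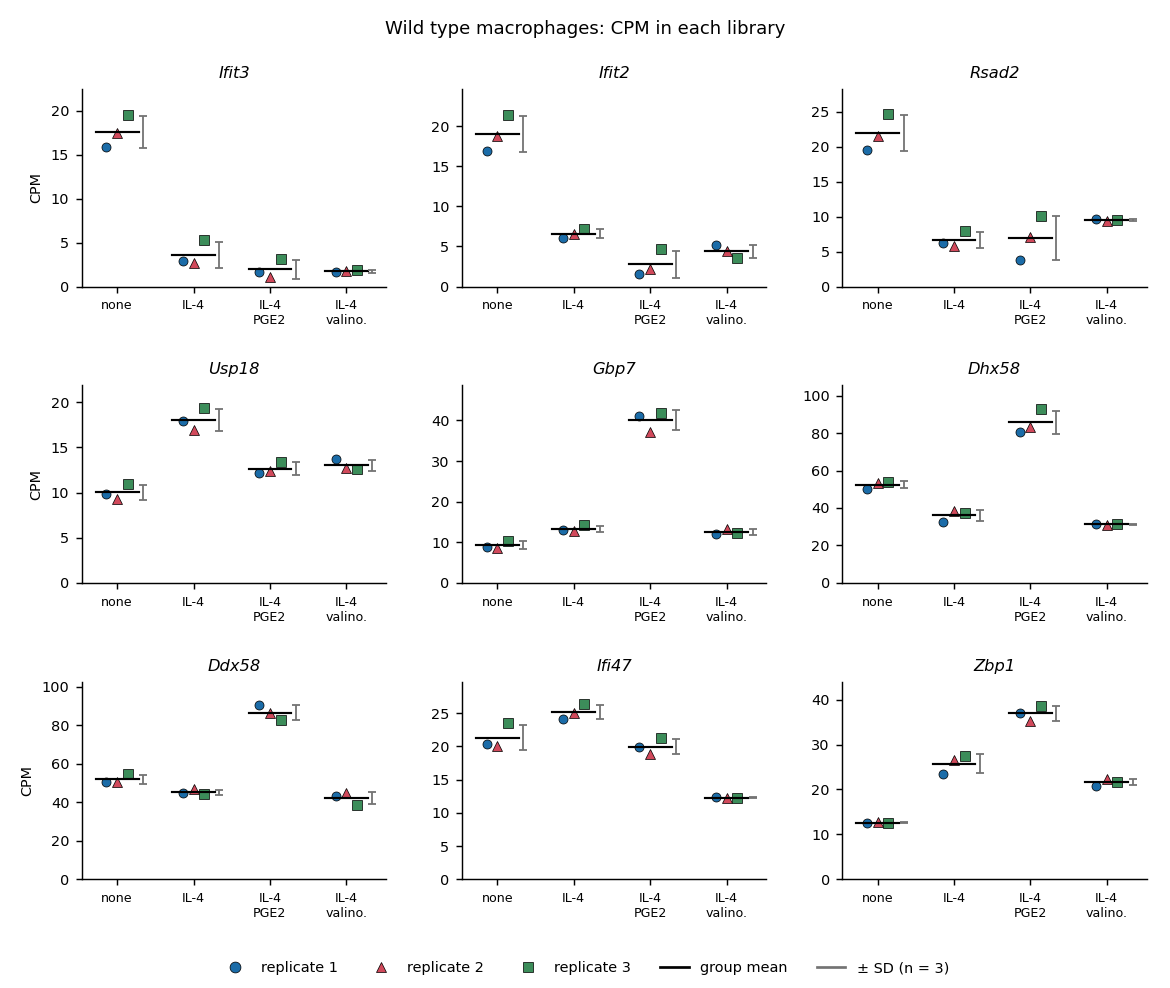
Levels in CPM (linear axes from 0) of 9 genes in each of the 12 wild type libraries, with 3 points, the mean and the SD for each group. Ifit3, Ifit2 and Rsad2 are highest without stimulus, Gbp7, Dhx58, Ddx58 and Zbp1 are highest with IL-4 and PGE2, Usp18 is highest with IL-4, and the valinomycin libraries of Ifi47 sit between 12.3 and 12.4 CPM, under all others.

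Valinomycin on top of IL-4 lowered a smaller set and raised none of the 40 in the edgeR fit of all wild type groups. It called 13 genes lower and 0 higher, where 18.9% and 19.4% of all genes tested were called lower and higher, and the median change was -0.15 against -0.03 for all genes. DESeq2 called 1 gene higher. At an unadjusted p under 0.05 there were 15 genes in either direction. Without IL-4 replicate 3 the count lower was 7 with 1 higher, and without valinomycin replicate 1 it was 8.

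Ifi47 had the clearest fall with valinomycin. It stood at 24.2, 25 and 26.3 CPM with IL-4 and at 12.4, 12.3 and 12.3 CPM with IL-4 and valinomycin, 2.05-fold lower (log2 fold change -1.03, SE 0.09, edgeR adjusted p = 2.37e-09). The related GTPase gene Igtp fell by 0.63 (SE 0.12), from 13.3, 14.7 and 15.5 CPM to 9.94, 8.92 and 9.3 CPM, while Irgm1 was not called (0.14, SE 0.09) at 43.4, 42.3 and 39.5 CPM. Eif2ak2 went from 63.8, 61.1 and 63.7 CPM to 38.3, 46.4 and 40.8 CPM (-0.59, SE 0.07, adjusted p = 1.76e-07), a fall where PGE2 gave a rise. Usp18 fell by 0.47 and Ifi27l2a by 0.41.

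Dhx58, Zbp1, Stat2, Rtp4 and Ifi35 were also called lower with valinomycin, at 166 to 936 counts in the valinomycin libraries. The calls of Dhx58 and Stat2 were lost without a filter on low counts and with only the compared groups. The falls of Ifit3, Ifit1 and Cmpk2 rested on few reads. Ifit3 changed by -1.05 (SE 0.33, edgeR adjusted p = 0.0173), and the call was lost without IL-4 replicate 3 (-0.65) or valinomycin replicate 1 (-0.98) or 2 (-1.02). Ifit1 changed by -0.97 (SE 0.29, adjusted p = 0.0107), lost without IL-4 replicate 3 (-0.57). Cmpk2 changed by -0.82 (SE 0.24, adjusted p = 0.014), lost without IL-4 replicate 3 (-0.56) or valinomycin replicate 1 (-0.77) or 3 (-0.70). IL-4 replicate 3 held the highest level of its group for all 3 of these genes. Ifit2 was not called, with 5.2, 4.37 and 3.61 CPM (-0.59, SE 0.24), nor was Rsad2, whose change had the opposite sign (0.52, SE 0.25). Without a filter on low counts, and with only the compared groups, Ifit2 was called lower and Rsad2 higher.

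Set directly against valinomycin, PGE2 gave higher levels for 22 of the 40 genes and lower levels for 3, where 31.7% and 31.5% of all genes were called higher and lower. The median difference was 0.36, against 0.00 for all genes. The differences were largest for Gbp7 (1.68, SE 0.09, edgeR adjusted p = 3.78e-14), Dhx58 (1.45, SE 0.07, adjusted p = 5.52e-15), Rtp4 (1.31, SE 0.10, adjusted p = 9.19e-11) and Eif2ak2 (1.06, SE 0.06, adjusted p = 9.08e-13), leaving aside Ifit1 (1.29, SE 0.28), which was under 5 CPM in both groups. Isg15 differed by 1.06 (SE 0.14). Ifit3 was not called (0.12, SE 0.38), and the genes called lower with PGE2 were Ifit2 (-0.72, SE 0.29, adjusted p = 0.04), Gbp3 (-0.62) and Bst2 (-0.19). The Ifit2 groups overlapped, and its call was lost without PGE2 replicate 1 (-0.41) or 2 (-0.58) or valinomycin replicate 1 (-0.58) or 2 (-0.73).

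The receptors, kinases and transcription factors upstream of these genes were measured in wild type cells too. Of 13 genes of the signalling chain, IL-4 was followed by 6 higher and 3 lower, PGE2 by 7 higher and 4 lower, and valinomycin by 3 higher and 4 lower. Of all genes 24.0% and 22.4% were called higher and lower with IL-4, 29.9% and 29.5% with PGE2, and 19.4% and 18.9% with valinomycin, so the chain's lower counts were near those shares for IL-4 and PGE2. Jak2, a kinase of the interferon gamma receptor, rose by 1.85 with IL-4 and by 1.26 with PGE2. Irf7, the factor that amplifies interferon production and is itself interferon-stimulated, stood at 49.3, 56.6 and 52.3 CPM with IL-4 and at 189.8, 180.1 and 160.6 CPM with PGE2, a rise of 1.75 (SE 0.06, edgeR adjusted p = 1.1e-16). Ifngr1, the ligand-binding chain of the interferon gamma receptor, rose by 1.41 with PGE2 from 207.9, 206.3 and 212.1 CPM to 517.1, 575.1 and 578.1 CPM. Irf9, the DNA-binding subunit of ISGF3, changed by -0.41 with IL-4 and by 0.25 with PGE2. Irf1, a factor of the GAS branch, rose by 0.79 with IL-4 and by 1.03 with valinomycin.

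A second list of other interferon-stimulated genes, of which 56 were tested in wild type, gave 8 higher and 27 lower with IL-4 (median -0.36), 16 higher and 19 lower with PGE2 (median 0.00), and 0 higher and 22 lower with valinomycin (median -0.12). Against the shares of all genes just given, both PGE2 counts were near the background. The chemokine gene Ccl12 rose by 3.49 with IL-4, while the helicase gene Helz2 fell by 1.12 and then rose by 1.29 with PGE2. Pml, which builds nuclear bodies, rose by 1.07 with PGE2 and the ATPase gene Tor3a fell by 1.32.

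Calls are counted here for genes with and without the ISRE core letters. With IL-4, 10 of the 15 genes with an ISRE core and 12 of the 14 without it were called lower, at medians of -0.66 and -0.59. With PGE2, 5 of 15 and 6 of 14 were called higher, at medians of 0.14 and 0.35. Of all genes tested 22.4% were called lower with IL-4 and 29.9% higher with PGE2. The count of genes with a core called higher with PGE2 was near that share. This split was not tested.

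In the shRNA experiment single libraries stood apart for most of the group. Control shRNA replicate 2 was the highest of its 3 libraries for 38 of 40 genes without stimulus, 38 with IL-4 and 34 with IL-4 and PGE2, where 36.2%, 38.2% and 36.4% of all genes were highest there. Its median excess over the other libraries of its group was 1.07, 1.08 and 0.46 on the log2 scale. Bst2 and Ifi27l2a were the exceptions in all conditions and were lowest in that replicate, and with IL-4 and PGE2 the other exceptions were Ifi47, Iigp1, Zbp1 and Isg20. The second list of interferon-stimulated genes moved with it, with 57, 57 and 37 of 60 highest there.

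Etv1 shRNA replicate 3 stood apart in the same way. It was highest for 39, 40 and 36 of 40 genes in the 3 conditions, against 30.8%, 33.0% and 36.4% of all genes, with median excesses of 0.71, 0.85 and 0.33. In wild type no library had a median beyond -0.10 to 0.13. Counts of Ifnb1, which encodes interferon beta, were 2, 12 and 1 in unstimulated Control shRNA replicates 1, 2 and 3, and 2, 1 and 1 with IL-4 and 2, 4 and 7 with IL-4 and PGE2. Over all Etv1 shRNA libraries Ifnb1 had 3 counts, and over all 12 wild type libraries 1. Its part in the level of these libraries was not tested.

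**Figure D3:**
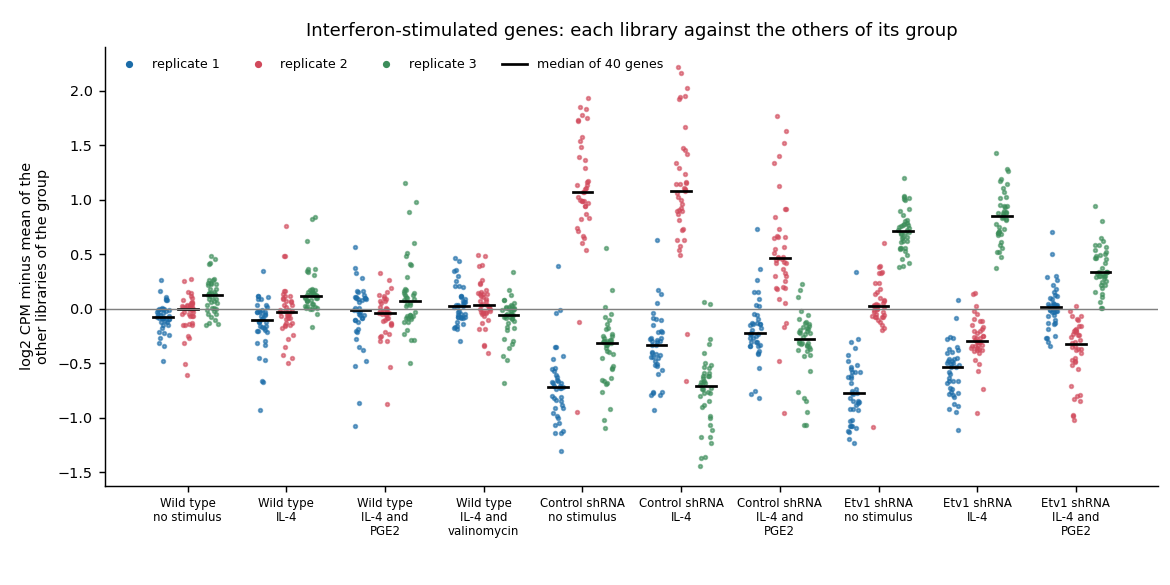
Log2 CPM of each of the 40 genes in 1 library minus the mean log2 CPM of the other libraries of its group, for all 30 libraries, with the median marked. The points of Control shRNA replicate 2 and Etv1 shRNA replicate 3 lie mostly above 0, with medians of 1.07, 1.08 and 0.46 and of 0.71, 0.85 and 0.33, while the wild type medians lie between -0.10 and 0.13.

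This spread sets what the shRNA comparisons can show. The median SE of a log2 fold change for the 40 genes was 0.401 for the IL-4 effect with the control hairpin, against 0.1 for all genes, while in wild type it was at most 0.096 against 0.087. Because same-numbered libraries of 1 hairpin deviated together, values from a fit with the replicate number as a block within each hairpin are given beside the comparisons within a hairpin.

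With the control hairpin, IL-4 was followed by 1 called gene, which was higher, and 0 lower, where 17.2% and 17.1% of all genes were called higher and lower. At an unadjusted p under 0.05 there were 2 genes, and DESeq2 called 0. The median change was -0.32, against -0.00 for all genes. With the replicate block 13 genes were called lower and 1 higher, where 21.3% and 21.1% of all genes were. The highest gene was Mx1, at 52.2, 101 and 49.3 CPM without stimulus and 141, 166 and 99.2 CPM with IL-4. Those groups overlapped by 1 library, and the change of 1.01 (SE 0.36, edgeR adjusted p = 0.0463) was lost with DESeq2 and without unstimulated replicate 1 (0.84) or 3 (0.84) or IL-4 replicate 1 (0.98) or 2 (0.84). With the block it was 1.05 (adjusted p = 0.00172). Without unstimulated replicate 1 the count lower was 1, and without IL-4 replicate 2 it was 2. Without all 3 replicate 2 libraries it was also 2, Ifit3 and Isg20, where 16.3% of all genes were called lower and 17.3% higher.

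Ifit3 shows what the block does. Control shRNA libraries held 144, 524 and 175 CPM without stimulus and 62.5, 246 and 48 CPM with IL-4. The groups overlap because replicate 2 is high in both, yet the IL-4 library is lower within every numbered pair. The change was -1.25 (SE 0.69) without the block, where it was not called, and -1.33 (SE 0.22, edgeR adjusted p = 0.00105) with it. The other genes called lower with the block included Ifit1, Ifit2, Rsad2, Cmpk2, Oas3, Oasl1, Mx2 and Slfn5.

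With the Etv1 hairpin, IL-4 was followed by 0 calls in edgeR, 0 at an unadjusted p under 0.05 and 0 in DESeq2, where 10.9% and 7.16% of all genes were called higher and lower. The median change was -0.26, against 0.01 for all genes. With the block 4 genes were called lower, Ifit3 (-0.93, edgeR adjusted p = 0.0443), Mx2, Isg20 and Oasl1, where 11.0% of all genes were called lower. Of the 40 genes 27 were lower in every numbered pair, against 26.4% of all genes, and with the control hairpin 24 were, against 31.9%.

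PGE2 on top of IL-4 lowered 7 genes and raised 0 with the control hairpin, where 30.1% and 29.3% of all genes were called lower and higher. The median change was -0.47 for the 40 genes, with 9 at an unadjusted p under 0.05 and, in DESeq2, 7 lower and 0 higher. With the block 21 were called lower and 0 higher, where 33.0% and 32.0% of all genes were. Without the 3 Control shRNA replicate 2 libraries 6 were called lower and 0 higher, where 27.6% and 28.0% of all genes were. Of these 6, 4 were among the 7 (Mx1, Ifit2, Ifit3 and Iigp1). Cmpk2 and Mx2 were added, and Usp18, Ifi47 and Bst2 lost their calls. Without IL-4 replicate 2 alone the count lower was 3 and without replicate 3 of IL-4 with PGE2 it was 2.

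Mx1 and the 2 Ifit genes led these falls. Mx1 went from 141, 166 and 99.2 CPM to 35.7, 38.6 and 29.1 CPM, with no overlap, and was 3.99-fold lower (log2 fold change -2.00, SE 0.38, edgeR adjusted p = 0.000558). Ifit3 stood at 16.7, 37.9 and 11.8 CPM with PGE2 and changed by -2.52 (SE 0.79, adjusted p = 0.0154), and Ifit2 changed by -2.49 (SE 0.74, adjusted p = 0.0109). Both Ifit calls were lost without IL-4 replicate 2 (-1.45 and -1.50) or without replicate 3 of IL-4 with PGE2 (-2.11 and -2.18). They were also lost with only the compared groups, and were kept without all 3 Control shRNA replicate 2 libraries. With the block Ifit3 changed by -2.34 (SE 0.28, adjusted p = 7.4e-05). Iigp1, an effector GTPase against vacuolar pathogens, fell by 1.83 (SE 0.44, adjusted p = 0.00194). Ifi47 (-1.39), Usp18 (-1.24) and Bst2 (-0.40) were also called lower. The Ifi47 call was lost without IL-4 replicate 2 (-0.97) or PGE2 replicate 3 (-1.31). The Usp18 call was lost without IL-4 replicate 2 (-0.75) or PGE2 replicate 1 (-1.20), 2 (-1.39) or 3 (-1.12), and that of Bst2 without IL-4 replicate 1 (-0.34) or 3 (-0.38) or PGE2 replicate 2 (-0.26) or 3 (-0.43).

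The genes that rose most with PGE2 in wild type were not called with the control hairpin. Dhx58 changed by 0.33 (SE 0.39, edgeR adjusted p = 0.505), from 68.3, 133 and 51.4 CPM to 102, 115 and 99.3 CPM, and Gbp7 changed by 0.26 (SE 0.58). In both genes replicate 2 was high with IL-4 and lower with PGE2, while replicates 1 and 3 went up. With the block and without the 3 Control shRNA replicate 2 libraries, Dhx58, Gbp2 and Gbp7 were called higher and 11 genes lower, where 30.5% of all genes were called in each direction. Irf7, which is no member of the 40, was called higher with the control hairpin (1.13, SE 0.31), and Ifngr1 rose by 1.42.

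With the Etv1 hairpin PGE2 was followed by 2 genes lower and 0 higher, where 22.8% and 24.6% of all genes were called lower and higher, at a median of -0.39. At an unadjusted p under 0.05 there were 5 genes, and DESeq2 called 6 lower and 0 higher. Iigp1 fell by 2.52 (SE 0.51, edgeR adjusted p = 0.000761), from 3.83, 3.96 and 6.79 CPM to 0.84, 0.61 and 1.04 CPM, with every PGE2 library below every IL-4 library. Mx1 went from 9.31, 14.6 and 29.1 CPM to 5.72, 2.54 and 4.32 CPM, a change of -2.06 (SE 0.56, adjusted p = 0.00911). The Mx1 call was lost without IL-4 replicate 3 (-1.50), which left 1 gene lower. With the block 15 genes were called lower and Dhx58 higher (0.70, adjusted p = 0.0318), where 26.6% and 28.2% of all genes were.

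**Figure D4:**
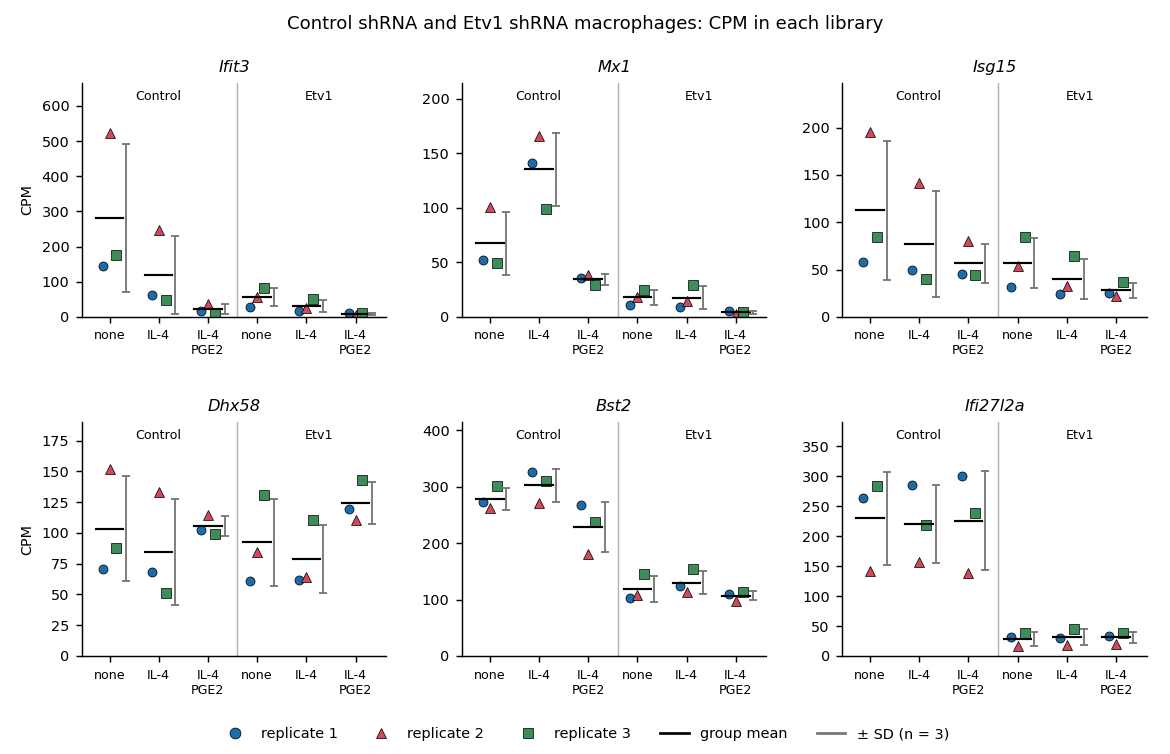
Levels in CPM (linear axes from 0) of 6 genes in each of the 18 shRNA libraries, with replicates marked and the mean and SD of each group. Control shRNA replicate 2 is the highest of its group for Ifit3, Mx1, Isg15 and Dhx58 in each condition and the lowest for Bst2 and Ifi27l2a, and the Etv1 shRNA libraries of Bst2 and Ifi27l2a lie below all Control shRNA libraries.

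The Etv1 hairpin lowered part of the group against the control hairpin in each condition. It called 7, 8 and 7 of the 40 genes lower without stimulus, with IL-4 and with IL-4 and PGE2, where 26.8%, 25.6% and 26.7% of all genes were called lower. Neither edgeR nor DESeq2 called any of the 40 higher, where edgeR called 24.9%, 25.4% and 27.6% of all genes higher. At an unadjusted p under 0.05 there were 12, 9 and 9 genes in either direction, and medians were -0.68, -0.60 and -0.63. The shares called lower were below those of all genes, at a median SE of the 40 genes of 0.409, 0.429 and 0.45 against 0.1 for all genes. With IL-4 and PGE2 a fit of only the 2 groups compared called 20 of the 40 lower and 0 higher, where 26.3% and 27.2% of all genes were called lower and higher, at a median SE of 0.206. Mx1, Mx2, Bst2 and Ifi27l2a were called lower in all 3 conditions.

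Ifi27l2a showed the widest gap. Without stimulus its Control shRNA libraries held 263, 141 and 284 CPM and its Etv1 shRNA libraries 31.5, 16.1 and 38.3 CPM. With IL-4 the values were 286, 157 and 218 CPM against 30.7, 18.9 and 44.6 CPM, and with IL-4 and PGE2 301, 138 and 239 CPM against 33.8, 20.2 and 39 CPM. The groups lay far apart in every condition, although replicate 2 was low with both hairpins. The changes were -3.01 (SE 0.46, edgeR adjusted p = 0.000118), -2.82 (SE 0.45, adjusted p = 0.000195) and -2.86 (SE 0.45, adjusted p = 0.000143), an 8.04-fold lower level without stimulus.

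Bst2 was at 273, 263 and 300 CPM without stimulus with the control hairpin and at 103, 108 and 145 CPM with the Etv1 hairpin, 2.34-fold lower (log2 fold change -1.23, SE 0.16, edgeR adjusted p = 1.54e-05). It was the steadiest of these genes between replicates, and changed by -1.22 with IL-4 and by -1.09 with IL-4 and PGE2. Mx1 stood at 52.2, 101 and 49.3 CPM against 11, 18.4 and 24.6 CPM without stimulus, a change of -1.86 (SE 0.41, adjusted p = 0.002), and it changed by -2.92 with IL-4 (adjusted p = 6.13e-05) and by -2.99 with IL-4 and PGE2 (adjusted p = 0.00035). The difference between its IL-4 effects with the 2 hairpins was not called (-1.07, SE 0.58, edgeR adjusted p = 0.421). No Mx1 library of the Etv1 hairpin reached the lowest control library in any condition. Mx2 changed by -1.28, -1.48 and -1.52.

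Without the 3 Control shRNA replicate 2 libraries 5, 4 and 8 genes were called lower, where 26.1%, 26.3% and 29.6% of all genes were, and 1, 0 and 0 higher, where 25.9%, 24.8% and 26.2% were. The medians were then -0.23, -0.19 and -0.47. Without the 3 Etv1 shRNA replicate 3 libraries 10, 10 and 7 genes were called lower, where 23.4%, 22.9% and 23.8% of all genes were, and 0 higher, where 21.8%, 22.8% and 24.8% were. The medians were then -0.94, -0.93 and -0.79.

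Mx1, Mx2, Bst2 and Ifi27l2a kept their calls in all 3 conditions without the 3 Control shRNA replicate 2 libraries. The 3 changes were then -3.25, -3.02 and -3.13 for Ifi27l2a, -1.25, -1.30 and -1.26 for Bst2, and -1.43, -2.77 and -2.91 for Mx1. Mx2 was at -0.87, -1.17 and -1.23, all called in that fit, but its call was lost in single removals: without stimulus and with IL-4 without Etv1 shRNA replicate 1 (-1.04 and -1.25) or Control shRNA replicate 2 (-0.89 and -1.16), and with IL-4 and PGE2 without Etv1 shRNA replicate 1 (-1.54) or 2 (-1.35) or Control shRNA replicate 2 (-1.20).

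Of the other genes called between hairpins, Ifit3, Ifi204 and Samd9l lost their calls when single libraries were left out. Ifit3 changed by -2.28 (SE 0.72, edgeR adjusted p = 0.0181) without stimulus, from 144, 524 and 175 CPM with the control hairpin to 29, 57.8 and 82.5 CPM with the Etv1 hairpin. The call was lost without Etv1 shRNA replicate 1 (-2.00) or 2 (-2.29) or Control shRNA replicate 2 (-1.46). It was kept in the fit without all 3 Control shRNA replicate 2 libraries. With IL-4 Ifit3 changed by -1.96 (SE 0.76, adjusted p = 0.0475) with overlapping groups, and that call was lost without Etv1 shRNA replicate 1 (-1.69) or 2 (-1.81) or Control shRNA replicate 2 (-0.87). Ifi204 stood at 146, 429 and 190 CPM against 65.6, 104 and 136 CPM without stimulus (-1.31, SE 0.47, adjusted p = 0.032), lost without Etv1 shRNA replicate 1 (-1.09) or 2 (-1.32) or Control shRNA replicate 2 (-0.71). Samd9l was called lower without stimulus (-0.68, SE 0.24), lost without Etv1 shRNA replicate 1 (-0.53) or 2 (-0.67) or Control shRNA replicate 2 (-0.48). Zbp1 was called lower with IL-4 and PGE2 (-1.57, SE 0.45, edgeR adjusted p = 0.0102). That call was kept in each of the 6 single removals (-1.77 to -1.35) and without the 3 Control shRNA replicate 2 libraries. Oas1a and Oasl1 were also called lower with IL-4 and PGE2, and in that last fit Oas1a kept its call and Oasl1 lost it. With IL-4, Zbp1, Ifi204 and Oas1a were called lower, and all of them lost that call without the 3 Control shRNA replicate 2 libraries. The most abundant genes of the other roles were not called without stimulus, as with Oasl2 at 223, 514 and 300 CPM against 134, 186 and 320 CPM, Irgm1 at 137, 277 and 176 CPM against 104, 126 and 169 CPM, and Herc6 at 54.4, 165 and 58.3 CPM against 40.7, 63.2 and 96.1 CPM.

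The count of lower genes moved with 1 library at a time. The shares of all genes called in these single removals are not given here, so the counts are not read against a background. Without stimulus it was 3 without Etv1 shRNA replicate 1, 4 without Etv1 shRNA replicate 2, 12 without Control shRNA replicate 1 and 3 without Control shRNA replicate 2. With IL-4 it was 3, 4 and 3 without Etv1 shRNA replicate 1, Etv1 shRNA replicate 2 and Control shRNA replicate 2. With IL-4 and PGE2 it was 4 in each of those removals. Without all 3 Control shRNA replicate 2 libraries, Gbp7 was called higher without stimulus (1.05, SE 0.38, edgeR adjusted p = 0.0416).

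**Figure D5:**
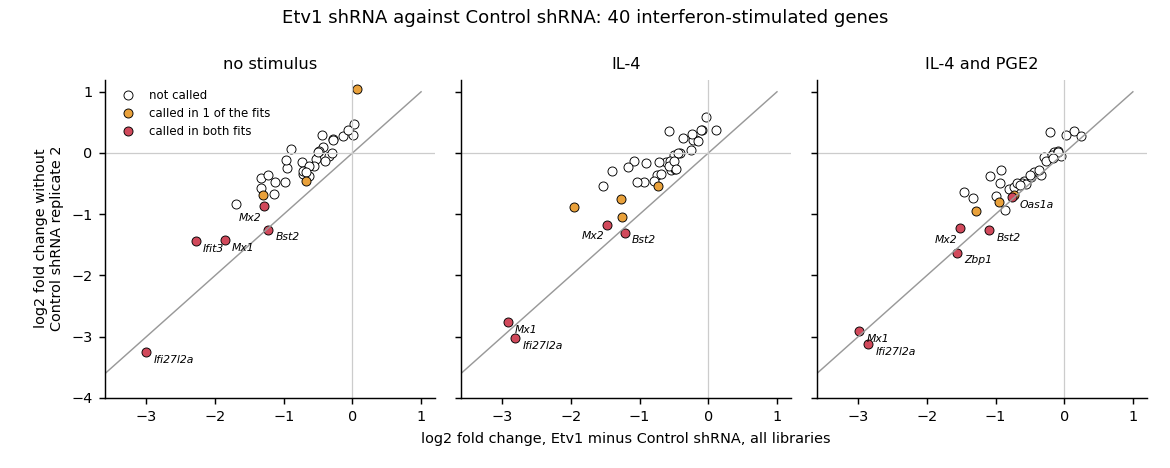
Log2 fold change of Etv1 against Control shRNA for the 40 genes in 3 conditions, with all libraries on the x axis and without the Control shRNA replicate 2 libraries on the y axis. Ifi27l2a, Mx1 and Bst2 keep changes beyond -1 on both axes, while many genes lie closer to 0 on the y axis.

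The signalling chain and related lists were measured beside the group. With the Etv1 hairpin Irf8, the factor that sets macrophage and dendritic cell fate, fell by 2.13, 1.60 and 1.13 in the 3 conditions, and Jak1 by 0.39, 0.40 and 0.50. Irf7 was not called without stimulus (-0.72, SE 0.31) and fell by 2.03 with IL-4 and PGE2, from 893.1, 721.4 and 823.0 CPM to 188.8, 176.4 and 229.5 CPM. Of 16 sensors and adaptors upstream of interferon, 12, 10 and 10 were called lower, where 26.8%, 25.6% and 26.7% of all genes were, and 2 higher in each condition, where 24.9%, 25.4% and 27.6% were. Of 60 other interferon-stimulated genes 21, 21 and 18 were called lower and 4, 2 and 2 higher, against the same shares of all genes, with Ly6e at -1.07 and the chemokine gene Ccl5 at -2.21 without stimulus, and Gbp8 higher by 2.63.

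Whether a stimulus acted differently with the 2 hairpins was tested as a difference of effects. For IL-4 and for PGE2 edgeR called 0 of the 40 genes, with 0 at an unadjusted p under 0.05 and 0 in DESeq2. Of all genes 2.71% and 1.81% were called higher and lower for IL-4, and 6.03% and 5.58% for PGE2. The medians were 0.05 and 0.08, and their sign and size moved with the libraries that stood apart. They were 0.00 and -0.18 without the 3 Control shRNA replicate 2 libraries and -0.01 and 0.25 without the 3 Etv1 shRNA replicate 3 libraries. With the replicate block within each hairpin there were again 0 calls of the 40 for both, where 6.82% and 4.59% of all genes were called higher and lower for IL-4, and 11.1% and 9.59% for PGE2, and the medians were 0.03 and 0.00.

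The effects were also compared between the control hairpin and wild type cells in a joint fit. For IL-4, 0 genes were called in edgeR, 2 had an unadjusted p under 0.05 and DESeq2 called 1 higher, where 4.60% and 3.13% of all genes were called higher and lower. With the replicate block within each experiment 6 genes were called higher, among them Mx1, Mx2, Rsad2 and Ifit1, and 0 lower, where 7.29% and 5.31% of all genes were. For PGE2, Mx1 and Samd9l were called lower and 0 higher, where 9.20% and 7.81% of all genes were called lower and higher, and the median difference was -0.88 against -0.02 for all genes. Without a filter on low counts 33 genes were called lower and 0 higher for PGE2, where 4.34% and 4.66% of all genes were, and 13 higher and 3 lower for IL-4, where 2.93% and 2.38% were. The median SE of the 40 genes was then 0.121 for PGE2 and 0.122 for IL-4, against 0.508 and 0.495 with the filter, and the cause was not tested. Experiment, transduction and hairpin differ together here and cannot be told apart. The PGE2 effect on Mx1 was -2.00 with the control hairpin and -0.35 in wild type, a difference of -1.65 (SE 0.48, edgeR adjusted p = 0.031). That on Samd9l was -0.02 and 0.76, a difference of -0.78 (SE 0.24, adjusted p = 0.0374). The Mx1 call was lost without Control shRNA IL-4 replicate 1 (-1.62) or 2 (-1.49), Control shRNA IL-4 and PGE2 replicate 1 (-1.63) or 3 (-1.51), wild type IL-4 replicate 2 (-1.54) or 3 (-1.65), or wild type IL-4 and PGE2 replicate 2 (-1.61) or 3 (-1.51). The Samd9l call was lost without Control shRNA IL-4 and PGE2 replicate 1 (-0.68) or 3 (-0.75) or without any of the 6 wild type libraries (-0.81 to -0.75). With the replicate block 20 genes were called lower and 0 higher, where 12.6% and 10.4% of all genes were. Without the 3 Control shRNA replicate 2 libraries 18 were called lower and 0 higher, where 8.14% and 12.8% of all genes were.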

How the data were processed

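The deposited tables, 1 per library, hold unnormalised read counts for Ensembl gene IDs. The authors made them with STAR, featureCounts and the GRCm38 genome, per the submitters' processing notes, which also name DESeq2 and deepTools. Versions and the strand setting of the counting are not given in the sources used here. Libraries were made with a stranded mRNA kit, per the labels. Symbols and coordinates came from GENCODE M21 on GRCm38: 42462 IDs matched (97.33%), and unmatched IDs held 0.19% of reads. Replicates differed by more than sampling noise (lowest chi-square per degree of freedom 1.235, p = 3.06e-71), so each counted as 1.

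The test was the quasi-likelihood F test of edgeR 4.0.16, with a robust fit after TMM and filterByExpr, in R 4.3.3, with DESeq2 1.42.0 and other settings as alternatives. The 2 experiments had a fit each, over all groups (12824 and 12382 genes), and a joint fit of 13050 genes gave the differences between experiments. Calls used a Benjamini-Hochberg adjusted p under 0.05 over all genes tested. SE is the absolute log2 fold change over the square root of F. CPM used TMM library sizes. The fit was tested on simulated data, here at an absolute log2 fold change of 1. For the wild type IL-4 effect 92.9% of changed genes were recovered (12434 genes simulated). For the PGE2 effect with the control hairpin 86.6% were recovered (11888 genes simulated). Recovery was not measured for the interferon-stimulated genes alone. In that PGE2 comparison the interferon-stimulated genes followed here had a median SE of 0.419, against 0.101 for all genes. The rate of 86.6% therefore cannot be read as the recovery of those genes.

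Replicate numbers were taken to pair libraries where same-numbered deviations from group means correlated above 0.1 in all 3 pairs. This held within each hairpin (lowest to highest r 0.213 to 0.490 and 0.187 to 0.325 for IL-4, 0.146 to 0.433 and 0.106 to 0.293 for PGE2, control and Etv1 hairpin). It held neither in wild type nor between hairpins, nor do the labels state a pairing.

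The 40 genes and all lists were chosen with earlier results of these data known. Full values are given for up to 4 called genes with the largest change whose higher group reached 5 CPM, for the most abundant gene of each of 9 roles, and for genes on which statements about single libraries rest. Of the other lists, genes with the smallest adjusted p are named; Irf9, Irf7, Irf1 and other genes outside these rules were named after their values were seen. One gene of the signalling chain, which is in its counts, is not reported here.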

Additional observations from a re-analysis of the deposited data

Results flagged for a closer look

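The PGE2 effect differed between Control shRNA and wild type macrophages for 2 of the 40 genes by the edgeR test of the difference itself, where 9.20% and 7.81% of all genes were called lower and higher, so the share of the 40 was below the background. Each call was lost in 8 of 12 removals of single libraries, and with the replicate block within experiment 20 genes were called lower. For Mx1 the difference, Control shRNA minus wild type, was -1.65 on the log2 scale. For Samd9l it was -0.78. In wild type the PGE2 change was not called for Mx1 (-0.35) and was called for Samd9l (0.76), while with the control hairpin it was called for Mx1 (-2.00) and not for Samd9l (-0.02). The 2 experiments differ in transduction and in processing as separate sets, which cannot be told apart from the hairpin.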

How the results depend on the processing

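Counts of the 40 genes called (higher, lower) moved over 1.5 times as follows. Valinomycin gave 1 higher without a filter on low counts, with DESeq2, with only the compared groups, and with the replicate block. The IL-4 effect with the control hairpin gave 0 higher without a filter, with DESeq2 and with only the compared groups, and 1 lower with an unnested replicate block. With the block within hairpin it gave 13 lower, without the 3 Control shRNA replicate 2 libraries 2, and with both 7. The PGE2 effect there gave 21 lower with the block within hairpin, and 3 higher and 11 lower with both. With the Etv1 hairpin the block within hairpin gave 4 lower for IL-4, and 1 higher and 15 lower for PGE2. For PGE2 there, DESeq2 and only the compared groups each gave 6 lower, the unnested block 4, and the fit without the 3 Etv1 shRNA replicate 3 libraries 1. Etv1 against Control shRNA without stimulus gave 3 lower with only the compared groups, and 1 higher without Control shRNA replicate 2. With IL-4 it gave 5 lower without a filter, and 4 with only the compared groups or without Control shRNA replicate 2. With IL-4 and PGE2 it gave 20 lower with only the compared groups. The difference of PGE2 effects between hairpins gave 1 lower, Iigp1, with the block and without Control shRNA replicate 2. Control shRNA minus wild type gave, for IL-4, 13 higher and 3 lower without a filter, 1 higher with DESeq2, 6 higher with the replicate block within experiment, 5 higher and 2 lower without Control shRNA replicate 2, and 7 higher and 2 lower with both. For PGE2 it gave 33 lower without a filter, 4 with DESeq2, 20 with the block, 18 without Control shRNA replicate 2, and 1 higher and 19 lower with both.

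Leaving out 1 library at a time gave these ranges. For these and all other single removals in the text, the shares of all genes called are not given here. In wild type, IL-4 gave 4 to 5 higher and 24 to 28 lower, PGE2 16 to 18 and 7 to 10, valinomycin 0 to 1 and 7 to 16, and PGE2 against valinomycin 20 to 23 and 2 to 4. With the control hairpin, IL-4 gave 0 to 1 higher and 0 to 2 lower, and PGE2 0 and 2 to 8. With the Etv1 hairpin, IL-4 gave 0 and 0, and PGE2 0 and 1 to 2. Between hairpins the lower counts were 3 to 12, 3 to 11 and 4 to 7 and the higher counts 0. Control shRNA minus wild type gave 0 to 1 higher for IL-4 and 0 to 3 lower for PGE2.

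Of the named genes followed across all settings, Gbp2 not among them, none changed sign. Among medians of the 40 genes, that of the PGE2 difference between hairpins went from 0.08 to -0.18 without Control shRNA replicate 2, and that of the IL-4 difference from 0.05 to -0.01 without Etv1 shRNA replicate 3 and to -0.02 with the block and without Control shRNA replicate 2. Gbp2 with PGE2 and the control hairpin went from -0.11, not called, to 0.26, called higher, with that last setting. Of the values of these named genes, 421 values kept their side of the threshold and 27 lost the call; leaving out 1 library, 325 kept it and 71 lost it. The causes were not tested. In wild type and between hairpins the replicate block changed no other count of calls by over 1.5 times. Depth limits genes of few counts, such as Iigp1, Ifi44, Mx2 and Isg20 in wild type.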
